A study of Mus musculus with 12 samples.

Results

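The genes described are 10 of the 22180 gene symbols measured: the immediate early genes Egr1, Klf4, Nr4a1, Fos, Fosb, Jun, Junb, Ier2 and Dusp1, together with Btg2. They were chosen by name as a group whose signals were lower in cells without Mll5, so the differences between genotypes given for them are a description and carry no test. All 10 had a probe set annotated to that symbol alone, and each symbol had 1 such probe set. The samples were LSK cells, a bone marrow fraction defined as lineage-negative, Sca1-positive and Kit-positive, which contains the stem cells of the blood and their multipotent offspring. They were sorted from C57BL/6 mice and not cultured. The 4 groups of 3 arrays each were Mll5+/+ (wild type) mock, wild type with N-Acetyl-L-Cysteine (NAC), Mll5-/- mock and Mll5-/- with NAC. NAC, a quencher of reactive oxygen species, was given at 1 g per liter of drinking water from the mating of Mll5+/- parents on and throughout life, so that the treated mice were exposed before birth. The labels give no age, no number of mice per array, and neither the deleted exons nor any tissue restriction of the knockout.

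Immediate early genes are switched on within minutes of a growth signal or a stress, without new protein synthesis, through MAP kinases that act on serum response factor with its ETS partners and on CREB. Most of them encode transcription factors that pass the signal on, and their messenger RNAs are short-lived. In mouse stem cells Egr1, Nr4a1 and Junb are known for restraining proliferation. Btg2, which is also a target of p53, is an antiproliferative adaptor that recruits the CCR4-NOT deadenylase. Sorting and other handling can induce immediate early genes in fresh cells.

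Windows from RefSeq (build GRCm38.p6), from 250 bases before to 50 bases after the gene start, were used here for 8 of the genes. They were searched on both strands for TGACG, the core of the cyclic AMP response element (CRE) that CREB binds, with the motifs chosen after the sequences had been looked at. TGACG occurred in 7 of the 8 windows (Klf4, Nr4a1, Fos, Fosb, Junb, Dusp1 and Btg2) and in 20.8% of all 32851 windows of the same length. The complete palindrome TGACGTCA, which contains that core on each strand, was present in Dusp1 and Btg2 and in 1.8% of all windows. The looser TGACNTCA added Jun, and 8.8% of all windows held it. The EGR binding sequence GCGGGGGCG occurred in Klf4, Nr4a1 and Fosb, against 2.9% of all windows. TATAAA occurred in Fos and Junb, against 13.6%. In Fos it lay at -33 to -28 from the gene start, but in Junb at 1 to 6, after the annotated start. The CArG box of serum response factor was in none of the 8 windows and in 1.6% of all. Only its strict form was searched, so variant boxes and any outside the windows were not counted. Egr1 and Ier2 were not among the 8 genes. No window was available for Ier2, while Egr1 was left out by choice, with its chromosome, so its sites were not searched. These letters were not tested for binding. The set of all windows was not matched to the 8 in base composition, so the shares are no matched background. The windows of 4 genes, picked for these motifs, are shown with TGACG or its reverse complement in capitals. Btg2 and Dusp1 are shown for the palindrome, Nr4a1 for its 4 copies of the core and Fosb for the copy near its start.
Btg2, chr1:134079106-134079405, minus strand: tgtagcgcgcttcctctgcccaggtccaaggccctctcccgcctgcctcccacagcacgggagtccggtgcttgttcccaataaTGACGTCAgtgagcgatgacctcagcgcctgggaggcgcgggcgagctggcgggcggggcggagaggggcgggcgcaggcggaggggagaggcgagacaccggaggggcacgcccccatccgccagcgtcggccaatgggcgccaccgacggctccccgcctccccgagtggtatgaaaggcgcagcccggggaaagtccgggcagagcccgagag
Dusp1, chr17:26508423-26508722, minus strand: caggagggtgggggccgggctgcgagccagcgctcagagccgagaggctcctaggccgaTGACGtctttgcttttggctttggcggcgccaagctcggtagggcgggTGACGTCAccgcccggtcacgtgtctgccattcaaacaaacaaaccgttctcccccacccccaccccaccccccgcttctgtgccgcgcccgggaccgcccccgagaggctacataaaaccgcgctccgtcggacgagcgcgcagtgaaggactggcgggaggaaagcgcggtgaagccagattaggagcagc
Nr4a1, chr15:101266596-101266895, plus strand: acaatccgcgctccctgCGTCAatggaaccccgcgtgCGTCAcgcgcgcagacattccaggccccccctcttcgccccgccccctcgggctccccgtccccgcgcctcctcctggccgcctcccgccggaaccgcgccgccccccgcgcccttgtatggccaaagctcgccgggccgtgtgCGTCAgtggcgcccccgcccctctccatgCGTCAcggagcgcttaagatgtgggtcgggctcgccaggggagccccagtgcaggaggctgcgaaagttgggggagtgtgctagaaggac
Fosb, chr7:19309996-19310295, minus strand: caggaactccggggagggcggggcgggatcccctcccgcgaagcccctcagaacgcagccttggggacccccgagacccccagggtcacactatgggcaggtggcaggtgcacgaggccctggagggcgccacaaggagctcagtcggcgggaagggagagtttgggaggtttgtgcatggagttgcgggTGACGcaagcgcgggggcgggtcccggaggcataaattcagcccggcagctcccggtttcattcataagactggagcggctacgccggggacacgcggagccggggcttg

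The values are log2 RMA signals, on which a difference of 1 is a doubling. Array medians lay between 2.89 and 2.96, and pairs of arrays correlated at 0.976 to 0.988. The lowest array weights over all genes were 0.54, for mutant NAC replicate 1, and 0.71, for wild-type mock replicate 1, and these 2 arrays are called those that stand apart. Results that rest on them are also given without them. Whether the replicates came from separate animals is not stated, and the p-values therefore cover the spread among these arrays alone, which may be technical. Kmt2e, the gene now named for Mll5, gave 7.37, 7.50 and 7.78 (lowest, median and highest) in the 6 wild-type arrays. In the 6 mutant arrays it gave 6.93, 7.18 and 7.51, a difference of -0.34 (SE 0.12, limma adjusted p = 0.419). The deleted part of the gene is not given, so this probe set does not check the labels. Kit (8.74 to 9.24) and Cd34 (9.87 to 10.52), which mark stem and progenitor cells, were far above the median gene level of 3.17 in every array. The T cell marker Cd3e (2.04 to 2.52) and the neutrophil marker Ly6g (1.61 to 2.57) were below it. The B cell marker Cd79a (3.51 to 5.45) and the myeloid marker Itgam (5.04 to 6.82) were above it in every array. Sca1 itself (Ly6a) had no probe set annotated to that gene alone.

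All 10 genes were lower on average in Mll5-/- than in wild type in mock cells and over both treatments, and 9 of 10 in NAC. The median log2 difference was -0.40 in mock, -0.33 in NAC and -0.41 over both, where the median of all genes was 0.00 to 0.01. Across all genes 49.2% were lower in the mutant in mock, 48.8% in NAC and 49.1% over both. Since the genes were chosen for this difference, these counts only describe them. In bulk samples, fewer cells of a type and less RNA per cell cannot be told apart. Without both arrays that stand apart the median was -0.48 in mock, -0.24 in NAC and -0.33 over both, with 10, 8 and 10 genes lower. Leaving out wild-type mock replicate 3 alone gave a smaller median in mock, -0.28, with 9 of 10 genes lower.

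**Figure D1:**
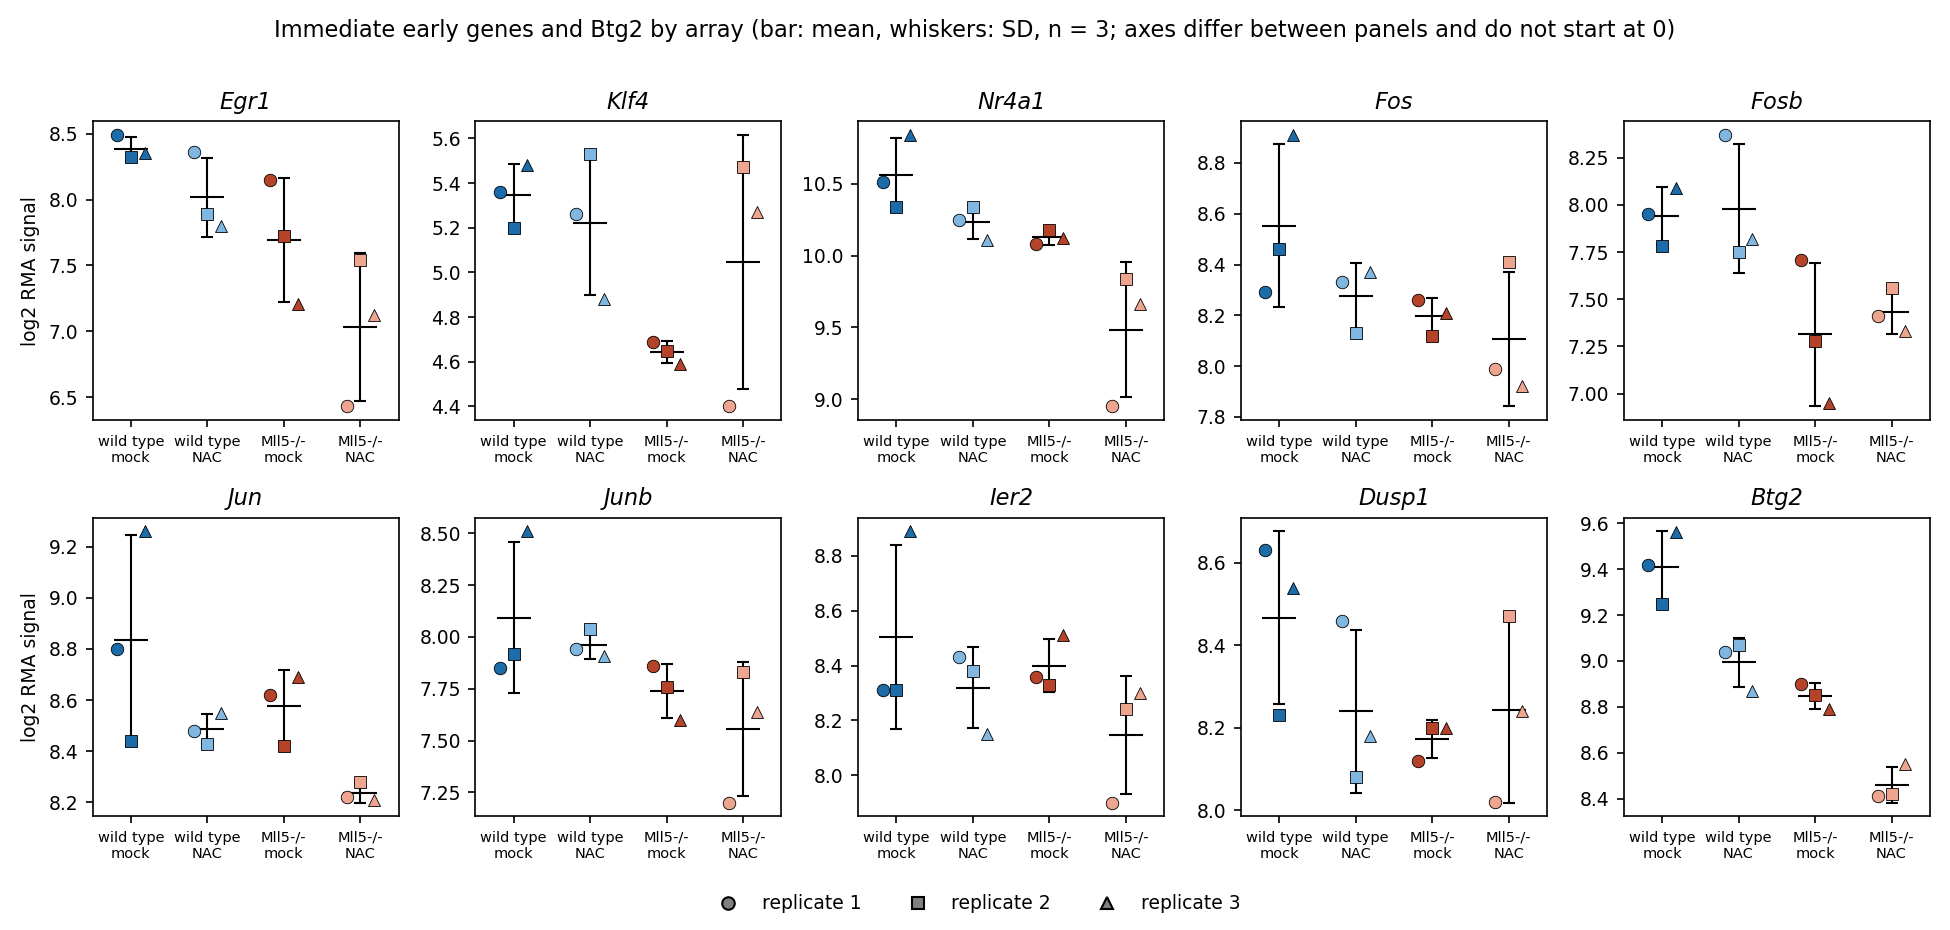
Log2 RMA signal of the 10 genes (vertical axes, not starting at 0 and different for each gene) in the 4 groups, with 1 symbol per array, a bar at the mean and whiskers of 1 SD (n = 3). Wild-type mock cells had the highest mean in 9 genes (Fosb excepted), and mutant NAC cells the lowest in 7 (Klf4, Fosb and Dusp1 excepted).

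Egr1 and Klf4 are zinc finger transcription factors. Egr1 read 8.49, 8.32 and 8.35 in wild-type mock replicates 1 to 3 and 8.36, 7.89 and 7.80 in wild-type NAC. It read 8.15, 7.72 and 7.21 in mutant mock and 6.43, 7.54 and 7.12 in mutant NAC. Within each treatment every mutant array was below every wild-type array. Its genotype difference was -0.69 (SE 0.27) in mock and -0.99 (SE 0.27) in NAC, the largest of the 10 over both treatments (-0.84, SE 0.19, 1.79-fold). Without mutant NAC replicate 1, its lowest array, and wild-type mock replicate 1 the difference over both was -0.66, and without mutant mock replicate 3 that in mock was -0.45. Klf4 was at 5.36, 5.20 and 5.48 in wild-type mock and at 4.69, 4.65 and 4.59 in mutant mock, groups that did not overlap (difference -0.70, SE 0.24). In NAC it read 5.26, 5.53 and 4.88 in wild type and 4.40, 5.47 and 5.27 in the mutant. These NAC groups overlapped widely. The difference there was -0.18 (SE 0.24), and it was 0.15 without both arrays that stand apart.

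Nr4a1, an orphan nuclear receptor also induced by antigen receptor signals in lymphocytes, read 10.51, 10.34 and 10.84 in wild-type mock and 10.25, 10.34 and 10.11 in wild-type NAC. In the mutant it read 10.08, 10.18 and 10.12 in mock and 8.95, 9.84 and 9.66 in NAC. The genotypes did not overlap within either treatment, and the mutant NAC arrays were the lowest 3 of the 12. Its difference was -0.44 (SE 0.20) in mock and -0.75 (SE 0.20) in NAC, where it was -0.48 without both arrays that stand apart.

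Fos, Fosb, Jun and Junb encode subunits of the AP-1 transcription factor, in which a FOS protein pairs with a JUN protein. Fosb read 7.95, 7.78 and 8.09 in wild-type mock, 8.37, 7.75 and 7.82 in wild-type NAC, 7.71, 7.28 and 6.95 in mutant mock and 7.41, 7.56 and 7.33 in mutant NAC. With all arrays it was the only one of the 10 genes in which all 6 mutant arrays (7.71 at most) were below all 6 wild-type arrays (7.75 at least). Of all genes, 0.234% separated the genotypes in this way with the mutant lower. Fosb and Junb did so without both arrays that stand apart, against 0.64% of all genes. Its difference over both treatments was -0.59 (SE 0.14, 1.5-fold). Junb, which limits proliferation of myeloid progenitors in mice, had a highest mutant value of 7.86 and a lowest wild-type value of 7.85. Its difference was -0.38 (SE 0.13). Fos (-0.26, SE 0.12) and Jun (-0.25, SE 0.12) differed less, with wild-type mock replicate 3 the highest array of each, at 8.91 and 9.26. Without that array the differences were -0.17 for Fos and -0.15 for Jun, and Jun in mock cells went from -0.26 to -0.04.

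Ier2, a nuclear protein of the immediate response, and Dusp1, a phosphatase that switches off MAP kinases, had the smallest differences over both treatments, -0.14 (SE 0.12) and -0.15 (SE 0.11). Without wild-type mock replicate 3 the difference of Ier2 was -0.04, and 0.09 within mock cells. Without mutant NAC replicate 1 that of Dusp1 was -0.09. Ier2 read 8.15, 8.35 and 8.89 (lowest, median and highest) in wild type and 7.90, 8.32 and 8.51 in the mutant, which overlapped in most arrays. Dusp1 had a mean of 8.47 ± 0.21 (SD, n = 3) in wild-type mock and 8.17 ± 0.05 in mutant mock, but 8.24 in both genotypes with NAC.

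Btg2 showed the tightest replicates. It read 9.42, 9.25 and 9.56 in wild-type mock, 9.04, 9.07 and 8.87 in wild-type NAC, 8.90, 8.85 and 8.79 in mutant mock and 8.41, 8.42 and 8.55 in mutant NAC. The order of the 4 groups was wild-type mock, wild-type NAC, mutant mock and mutant NAC. Of the neighbours in this order only wild-type NAC and mutant mock overlapped (8.87 against 8.90). The genotype difference was -0.56 (SE 0.12) in mock and -0.53 (SE 0.12) in NAC, or 1.46-fold over both treatments (-0.55, SE 0.08).

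Within mock cells 7 of the 10 genes had every mutant array below every wild-type array (Egr1, Klf4, Nr4a1, Fos, Fosb, Dusp1 and Btg2), where 5.46% of all genes did. With NAC it was 6 (Egr1, Nr4a1, Fosb, Jun, Junb and Btg2), where 6.05% of all genes did. Egr1, Nr4a1, Fosb and Btg2 were separated in both. With both arrays that stand apart left out it was 8 in mock, with Junb added (9.91% of all genes), and the same 6 in NAC (11.2%). The genotype contrast chose the genes, and nothing further is read from these shares.

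NAC against mock was not used to choose the genes and was tested with limma over all 22180 genes. Egr1, Nr4a1, Jun and Btg2 were lower with NAC in both genotypes, at unadjusted p under 0.05 over both genotypes, but none of the 10 passed after adjustment. Btg2 had a difference of -0.42 in wild type (SE 0.12, adjusted p = 0.57) and -0.39 in the mutant (SE 0.12, adjusted p = 0.749). Over both genotypes it was -0.40 (SE 0.08, 95% interval -0.58 to -0.22, unadjusted p = 0.000375, adjusted p = 0.219), a 1.32-fold lower signal. All 3 NAC arrays were below all 3 mock arrays in each genotype, which was so for 0.509% of all genes and for no other of the 10. Its adjusted p over both genotypes lay between 0.101 and 0.484 over 20 alternatives, and the difference between -0.44 and -0.36.

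Nr4a1 had a difference of -0.64 (SE 0.20, adjusted p = 0.753) with NAC in the mutant and -0.33 (SE 0.20, adjusted p = 0.879) in wild type. Egr1 had -0.66 (SE 0.27, adjusted p = 0.829) and -0.37 (SE 0.27, adjusted p = 0.891). Much of the mutant value of both genes came with mutant NAC replicate 1, without which it was -0.38 for Nr4a1 and -0.36 for Egr1. In wild type Nr4a1 had -0.19 without wild-type mock replicate 3. Jun had -0.34 (SE 0.17, adjusted p = 0.877) in the mutant, where NAC replicates read 8.22, 8.28 and 8.21 and mock replicates 8.62, 8.42 and 8.69. In wild type Jun had -0.35 (SE 0.17, adjusted p = 0.862), and -0.13 without wild-type mock replicate 3.

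**Figure D2:**
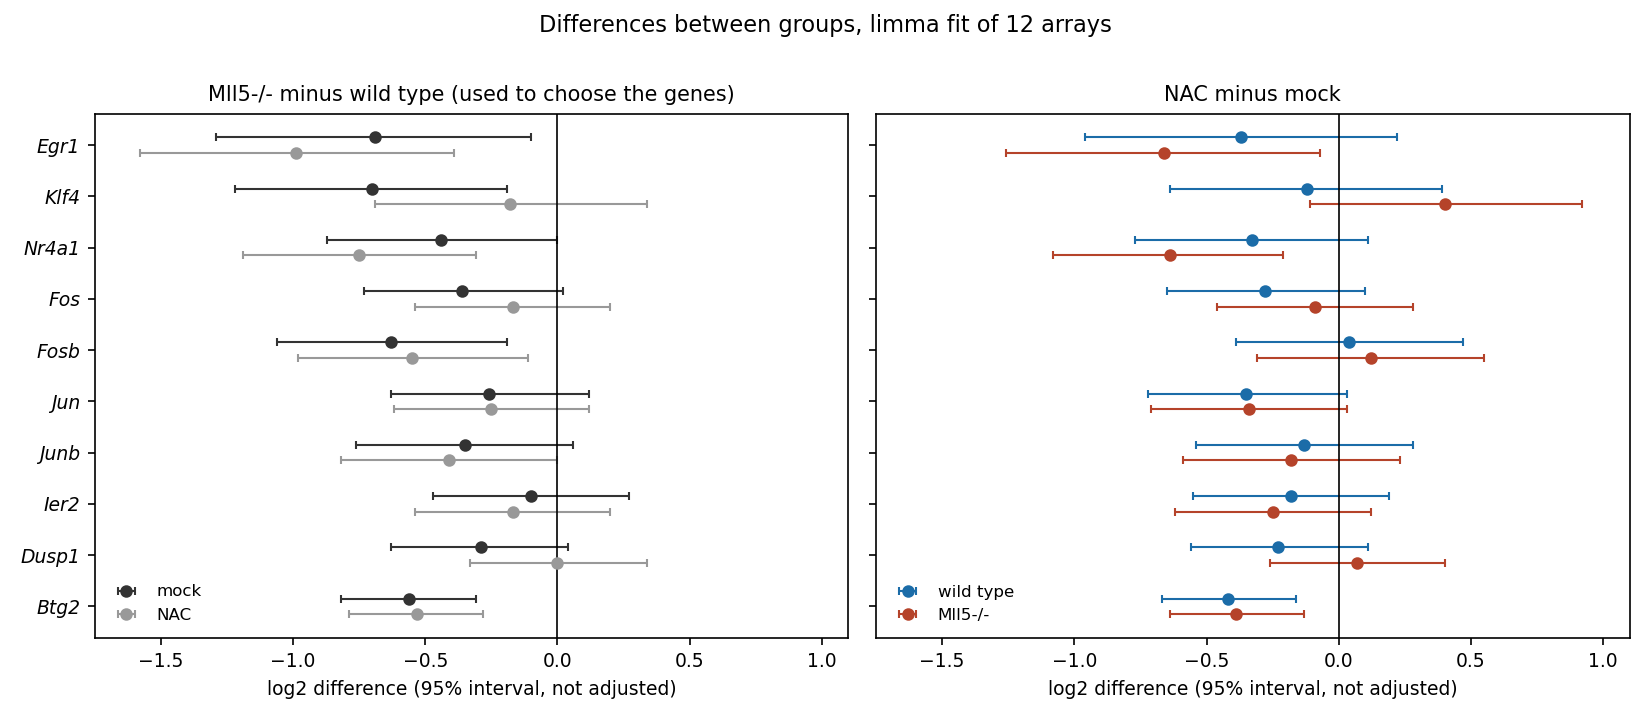
Log2 differences (horizontal axes) of the 10 genes with unadjusted 95% intervals from the limma fit of 12 arrays, between genotypes (left, in mock and NAC) and between NAC and mock (right, in each genotype). The left panel holds the contrast that chose the genes, so its intervals describe spread and are no test. Btg2 had NAC differences of -0.42 and -0.39 with intervals that exclude 0 in both genotypes, while Klf4 had -0.12 in wild type and 0.40 in the mutant.

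As a group, 7 of 10 genes had a difference below 0 with NAC in the mutant (median -0.22, and -0.08 without mutant NAC replicate 1), 9 of 10 in wild type (median -0.25, and -0.12 without wild-type mock replicate 3) and 8 of 10 over both (median -0.20, and -0.11 without wild-type mock replicate 3). The share of all genes below 0 was 50.1%, 50.5% and 50.4%, with a median of 0.00. None of the 10 passed limma's test in any of these comparisons, and 3, 1 and 4 had an unadjusted p under 0.05, where 5.86%, 5.92% and 7.43% of all genes did. Among all genes 0.00451% passed in the mutant, 0.00902% in wild type and 0.00451% over both. Nr4a1, Jun, Ier2 and Btg2 had all NAC arrays below all mock arrays in the mutant (5.14% of all genes), and Btg2 alone in wild type (5.32%). None of the 10 had all NAC arrays above all mock arrays, in the mutant (5.08% of all genes) or in wild type (5.42%). Without both arrays that stand apart the same 4 separated in the mutant (9.85%), and Fos and Btg2 in wild type (10.9%). The NAC and genotype comparisons share arrays, so they are not independent of each other.

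No difference between the genotypes in their response to NAC passed the test. In the interaction of genotype and NAC the 10 genes had a median of 0.02, with 4 of 10 below 0, and none passed limma's test or had an unadjusted p under 0.05 (adjusted p = 0.999 for each). No gene of the whole array passed either (0%), and 934 (4.21%) had an unadjusted p under 0.05. The median was -0.13 with 6 of 10 below 0 without wild-type mock replicate 3, and 1 of 10 was below 0 without mutant NAC replicate 1. The intervals were wide: that of Btg2 ran from -0.33 to 0.39 around 0.03, and that of Egr1 from -1.13 to 0.55 around -0.29. Klf4 had the largest value, 0.53 (SE 0.34, 95% interval -0.20 to 1.25). Its mutant NAC arrays were 4.40, 5.47 and 5.27 against 4.69, 4.65 and 4.59 in mutant mock, and without mutant NAC replicate 1 the interaction was 0.85.

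The 10 genes moved together from array to array. Over 12 arrays all 45 pairs had a positive correlation, from 0.22 to 0.89 with a median of 0.63. The pairs Nr4a1 and Btg2 (0.89), Egr1 and Nr4a1 (0.88) and Nr4a1 and Junb (0.88) were the closest. After subtraction of each group's mean, 44 of 45 pairs were above 0, with a median of 0.53 and Klf4 and Nr4a1 as the closest pair (0.92). The mean over pairs was 0.63, against 0.01 over all pairs of genes above the median level, and 0.49 against 0.013 within groups. These are descriptions, since the genes were chosen for a shared difference and share their libraries.

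Both ends of this pattern were single arrays. Mutant NAC replicate 1 was below the 12-array mean in all 10 genes and held the lowest value of 7, and wild-type mock replicate 3 was above the mean in all 10 and held the highest value of 6. Without the first the median pair correlation was 0.55, without the second 0.51, and without both 0.33 (0.26 within groups). Spread between replicates differed between the genes. Against the 1000 genes nearest in level, the residual SD of Egr1 (0.398) was at percentile 97.5 and that of Nr4a1 (0.275) at 90.3. That of Btg2 (0.106) was at percentile 20 and that of Dusp1 (0.184) at 63.2.

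**Figure D3:**
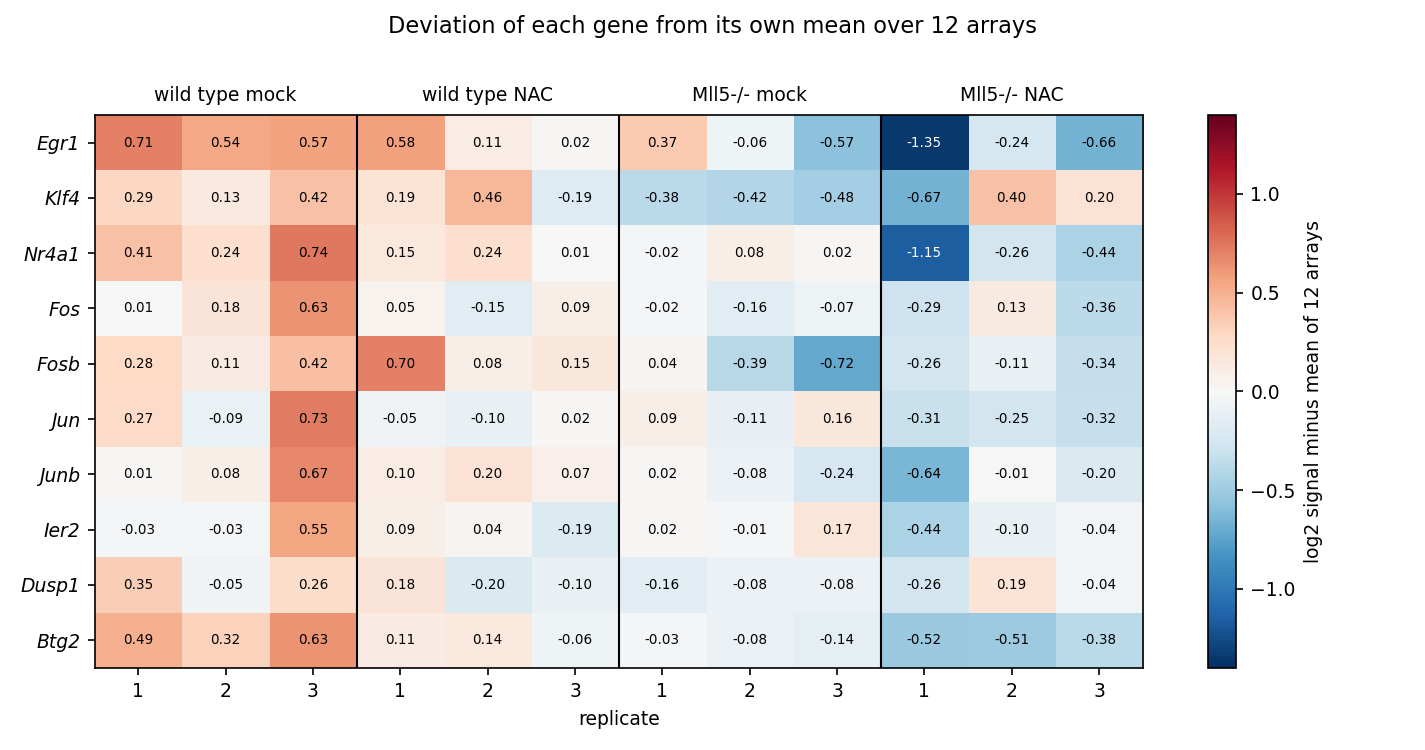
Log2 signal of each gene (rows) in each array (columns, by group and replicate) minus the gene's mean over 12 arrays, with red above and blue below the mean. Wild-type mock replicate 3 was above the mean in all 10 genes and mutant NAC replicate 1 below it in all 10.

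By correlation over 12 arrays with the mean of the 10 standardised signals, the most similar other genes were Sik1 (r = 0.94), Lag3 (0.93), Patj (0.92), Srcap (0.92) and Itpr2 (0.92). Sik1, a salt-inducible kinase and an immediate target of CREB, read 8.63 to 8.97 in wild-type mock, 8.56 to 8.82 in wild-type NAC, 8.32 to 8.64 in mutant mock and 7.88 to 8.31 in mutant NAC. Its order of groups was that of Btg2. With group means subtracted the most similar were Maml3 (0.96), Crat (0.95), Vmn2r12 (0.95), Sik1 (0.94) and Esrp2 (0.94). Sik1 was the gene named by both measures, and Vmn2r12, at a mean signal of 2.69, was below the median gene level. Picking the 5 highest of all genes over 12 arrays gives high values by selection alone, and none was tested.

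Other genes of the immediate early response, not among the 10, were lower in the mutant in 23 of 29 measured cases over both treatments, with a median of -0.17 (25 of 29 and -0.19 without both arrays that stand apart). None passed limma's test, 10 had an unadjusted p under 0.05 and the lowest adjusted p was 0.267. Over all genes 0.00902% passed and 9.08% had an unadjusted p under 0.05. Nr4a3, a relative of Nr4a1, had a difference of -0.75 (SE 0.19, adjusted p = 0.292), with 5.71 to 6.82 in wild-type mock, 5.68 to 6.54 in wild-type NAC, 5.28 to 5.75 in mutant mock and 5.10 to 5.43 in mutant NAC. Egr3, a relative of Egr1, had -0.61 (SE 0.26, adjusted p = 0.499). With NAC, 24 of 29 were below 0 over both genotypes with a median of -0.13, and none passed (5 with an unadjusted p under 0.05, against 7.43% of all genes, lowest adjusted p 0.386).

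Feedback inhibitors and co-repressors of the response were lower in the mutant in 12 of 15 cases (median -0.10, and 13 of 15 with -0.22 without both arrays that stand apart). None passed limma's test, 6 had an unadjusted p under 0.05 (9.08% of all genes) and the lowest adjusted p was 0.249. Dusp2, a nuclear MAP kinase phosphatase, had a difference of -0.57 (SE 0.18, adjusted p = 0.367). Dusp5, a phosphatase specific for ERK, had -0.46 (SE 0.14, adjusted p = 0.351). Dusp5 read 6.86 to 6.90 in mutant mock, within the 6.70 to 7.48 of wild-type mock, and 5.95 to 6.65 in mutant NAC, below the 7.07 to 7.23 of wild-type NAC. With NAC over both genotypes 12 of 15 were below 0 (median -0.17), and none passed (5 with an unadjusted p under 0.05, against 7.43% of all genes).

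Upstream kinases and transcription factors, of which 20 of 26 were measured, were lower in the mutant in 13 (median -0.13), with none passing limma's test and 3 at an unadjusted p under 0.05. In this and the next 3 lists the counts at that threshold stand against 9.08% of all genes. Srf, serum response factor itself, had -0.38 (SE 0.15, adjusted p = 0.458) and Mapk8, a JNK kinase, 0.32 (SE 0.12, adjusted p = 0.47). Genes of the BTG and TOB family and CCR4-NOT, the partners of Btg2, were near the median of all genes, with 6 of 13 lower and a median of 0.02. The largest were Cnot10 (-0.26, SE 0.12, adjusted p = 0.548) and Cnot2 (0.21, SE 0.10, adjusted p = 0.578), subunits of the deadenylase complex, and 1 had an unadjusted p under 0.05. Other p53 targets were lower in 11 of 19 (median -0.06, 2 at an unadjusted p under 0.05). Among them the kinase Plk2, which is also in the immediate early list, had -0.43 (SE 0.17, adjusted p = 0.492) and Rrm2b, a subunit of ribonucleotide reductase, -0.36 (SE 0.16, adjusted p = 0.519). Heat shock genes, which also respond to handling, were lower in 5 of 10 (median 0.00, 2 at an unadjusted p under 0.05), with Hspa1a at -0.38 (SE 0.47, adjusted p = 0.853) and its co-chaperone Bag3 at -0.35 (SE 0.14, adjusted p = 0.491). With NAC over both genotypes the medians of these 4 lists lay between -0.07 and -0.02, and none of their genes passed (1, 0, 1 and 1 at an unadjusted p under 0.05, against 7.43% of all genes). Without both arrays that stand apart the genotype medians were -0.09, -0.05, -0.08 and 0.04 and the NAC medians -0.03, -0.05, -0.05 and 0.03, in the order given, so the direction turned for the BTG, TOB and CCR4-NOT list between genotypes and for heat shock genes with NAC.

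**Figure D4:**
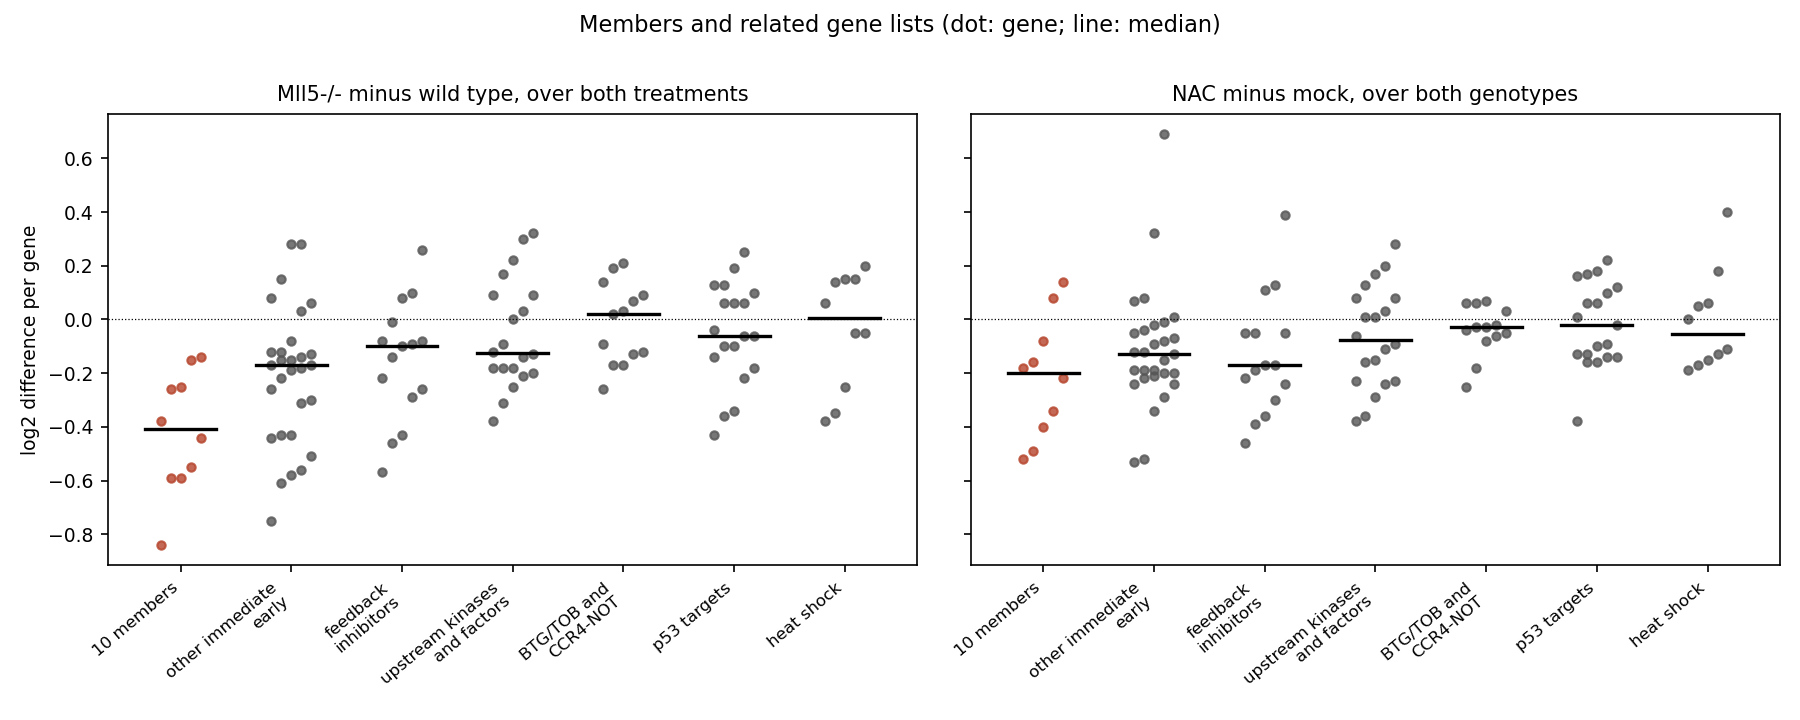
Log2 difference per gene (vertical axis) of the 10 genes, in red, and of related lists, in grey, with a line at each median, between genotypes over both treatments (left) and between NAC and mock over both genotypes (right). The 10 genes had medians of -0.41 and -0.20 and the other immediate early genes -0.17 and -0.13, while the BTG, TOB and CCR4-NOT list had 0.02 and -0.03.

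Lists of cell type markers, set by name, also differed between the groups. Over both treatments all 9 measured B cell markers were lower in the mutant (median -0.25), as were all 7 plasma cell markers (-0.20). So were 10 of 12 neutrophil markers (-0.11), where 49.1% of all genes were lower. None of these passed limma's test, with lowest adjusted p of 0.105, 0.0597 and 0.129. Among plasma cell markers Jchain had -2.78, but Xbp1 and Prdm1 -0.04, and the neutrophil marker Cxcr2 was higher (0.65). All 9 megakaryocyte markers were higher (0.46). Of these Selp alone passed limma's test (adjusted p = 0.0269), as did 0.00902% of all genes. The mean signal of B cell markers ranged from 3.47 to 3.83 in wild-type mock, 3.68 to 3.84 in wild-type NAC, 3.34 to 3.59 in mutant mock and 3.12 to 3.55 in mutant NAC. The plasma cell markers had group medians of 4.37, 4.58, 3.74 and 4.09 in the same order. The mean signal of megakaryocyte markers ranged from 4.36 to 4.66, 4.34 to 4.49, 4.76 to 5.17 and 4.99 to 5.11 in the same order. T and NK cell markers had a median of -0.10, monocyte and macrophage markers 0.03 and erythroid markers 0.09. Endothelial and stromal markers, called stromal below, had 0.07. Stem and progenitor markers were lower in 8 of 14 (median -0.04), and none passed limma's test. Among them Flt3 had -0.74 (SE 0.17, adjusted p = 0.225), while Procr and Slamf1 were higher, at 0.34 each. Without both arrays that stand apart 7 of 9 B cell markers were lower (median -0.18), all 7 plasma cell (-0.23) and 9 of 12 neutrophil markers (-0.11) were lower, all 9 megakaryocyte markers were higher (0.41), and monocyte and macrophage markers had a median of 0.21. With NAC, 13 of 14 stem and progenitor markers were below 0 over both genotypes (median -0.31), where 50.4% of all genes were. Their mean signal was 7.30 to 7.62 in wild-type mock against 7.15 to 7.26 with NAC. In the mutant it was 7.35 to 7.50 in mock against 6.88 to 7.30 with NAC. NAC and mock arrays thus did not overlap in either genotype. How often the mean of a marker list separates in this way was not computed. The shares given for single genes do not apply to such means. Stromal markers, 8 of 8 below 0 (median -0.17), also did not overlap, with 3.51 to 3.55 in wild-type mock against 3.25 to 3.38 with NAC, and 3.42 to 3.62 in mutant mock against 3.15 to 3.27 with NAC. The largest of them were Emcn (-0.71) and Pdgfrb (-0.66), at mean signals of 5.77 and 5.11. The other stromal markers lay between -0.22 and -0.02, at mean signals of 1.84 to 3.33. Erythroid markers were above 0 in 7 of 8 (median 0.13) and monocyte and macrophage markers in 8 of 11 (0.12). Neutrophil markers were above 0 in 8 of 12 (0.16) and plasma cell markers in 5 of 7 (0.07). Among the latter Jchain had 1.93 (SE 0.43, limma adjusted p = 0.258). B cell, T and NK cell and megakaryocyte markers had medians of 0.00, -0.02 and -0.02. The NAC medians without both arrays that stand apart were -0.22 for stem and progenitor and -0.13 for stromal markers (7 of 8 below 0). They were 0.23 for erythroid, 0.20 for monocyte and macrophage, 0.19 for neutrophil and 0.09 for plasma cell markers. Whether the signal of a marker came from the cell type it is listed for or from the LSK cells themselves was not tested. The part of these cell types in the differences of the 10 genes was not tested either.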

How the data were processed

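Total RNA of sorted LSK cells was labelled with biotin and hybridised to 12 arrays. The deposited values are log2 signals that the authors computed by RMA in Affymetrix Power Tools, according to the labels and per the submitters' processing notes. The base of the logarithm was taken from the range, 0.74 to 13.23. Of 41345 probe sets, 23521 had a single gene symbol in the platform annotation, and 23328 of these matched RefSeq GRCm38.p6. For each of 22180 symbols the brightest probe set by its 12-array mean was kept, with no filter on low values. Groups were taken from the labels. The linear model held the 4 group means over the 12 arrays (limma 3.58.1 with lmFit and eBayes, R 4.3.3). Benjamini-Hochberg adjustment ran over all genes, with 0.05 as the threshold. The procedure was tested on simulated data. Figures used matplotlib 3.10.9.

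The genes, lists and named-gene rule were chosen with earlier results of these data known. The rule named the 10 genes, the 2 largest genotype differences over both treatments of each related list, list genes that passed, and the 5 most similar genes by 2 correlations. Same-numbered replicates of different groups correlated in their deviations, over genes above the median level, at -0.05 to 0.09 (median 0.02). Differently numbered ones correlated at -0.09 to 0.08 (median -0.01). No label says that the numbers pair the arrays, and the main model held no pairing. A pairing that affects few genes would not be seen in this way. Alternatives are given in the closing section.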

Additional observations from a re-analysis of the deposited data

How the results depend on the processing

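None of the 820 member tests under the alternatives passed at an adjusted p under 0.05, and the lowest was 0.101 (Btg2, NAC over both genotypes, trend and robust variance). None of the 620 genotype differences of single members moved by more than the SD between replicates. Leaving out 1 of 3 arrays can shift a difference by little more than that SD, so this count does not show stability. With single arrays left out, the difference of Ier2 in mock ranged from -0.20 to 0.09. That of Klf4 in NAC ranged from -0.39 to 0.15, and that of Jun in mock from -0.45 to -0.04. Leaving out each array in turn, the members' median ranged from -0.31 to -0.08 for NAC in the mutant, -0.33 to -0.12 for NAC in wild type, -0.26 to -0.11 for NAC over both genotypes and -0.13 to 0.14 for the interaction. It ranged from -0.50 to -0.28, -0.45 to -0.24 and -0.49 to -0.28 for the genotype difference in mock, in NAC and over both treatments. Members below 0 numbered 1 to 6 in the interaction, with 2 without both arrays that stand apart. The other counts of members below 0 stayed within 1.5 times.

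Counts of all genes called are small and unstable. Leaving out each array they ranged from 0 to 2 for NAC in the mutant, 1 to 5 in wild type, 1 to 4 over both and 0 to 2 for the interaction, and from 1 to 4, 0 to 3 and 1 to 7 for the genotype in mock, in NAC and over both. The main counts were 1, 2, 1, 0, 2, 0 and 2 in this order. With array weights 2 passed for NAC in the mutant, 4 for the genotype in NAC and 4 over both. A fresh quantile normalization gave 2 for NAC in the mutant, and the filter at the median level, which all 10 members passed, gave 2 for the genotype in NAC. With only the compared groups, 1 passed for NAC in wild type and for the genotype in mock and in NAC. Without both arrays that stand apart the counts were 0 for NAC in the mutant, 3 for NAC over both, 0 for the genotype in mock and 4 over both. With the replicate number as a block, 1 gene passed for the genotype in mock and 1 over both, and no member call changed. Centring and averaging probe sets within a symbol changed no count by over 1.5 times. The causes of these shifts were not tested. The number of arrays limits the precision, with a median SE of 0.16 for a difference between 2 groups.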
